A study of Mus musculus with 87 samples.

Results

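The transcripts of 10 genes of the p53 and DNA damage response were followed in mouse liver before surgery, after sham surgery and during regeneration after partial hepatectomy (PH). The genes were Trp53, Mdm2, Ccng1, Gadd45a, Gadd45b, Gadd45g, Trp53inp1, Phlda3, Bbc3 and Pmaip1. They were listed by symbol, with earlier results of these data known, and are 10 of the 37991 genes in the table. All 10 passed the detection threshold of -1.5 log2 RPKM in at least 1 library, as 15396 genes did. RPKM, the reads per kilobase of transcript scaled to library size, is a level that can be compared between genes because it is divided by transcript length.

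The p53 protein, encoded by Trp53, is a transcription factor that is held at a low level by the ubiquitin ligase Mdm2 and accumulates when DNA is damaged or replication is disturbed. It then raises transcription of genes that halt the cell cycle, repair DNA or trigger apoptosis, and also of Mdm2 itself, which closes a feedback loop. Hepatocytes of a resected liver leave their resting state and replicate their DNA, and several genes of this response, the Gadd45 family among them, are also induced by other forms of stress without p53.

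The samples were individual livers of male C57BL/6 mice aged 12 to 14 weeks, entrained to light-dark and night-feeding cycles, and no group carried a genetic change. PH removed about 2/3 of the liver under isoflurane anaesthesia at Zeitgeber time (ZT) 2, which is 2 h after lights on, and sham surgery opened the abdomen without resection. Of 87 labelled samples, 80 had values and fell into 19 groups. Not operated on were the resting livers at 0 h (C0, n = 9, ZT2), livers taken 4 h later at ZT6 (C4, n = 3) and livers taken at 4 weeks (C4W, n = 2). The sham groups were named S with the hours after surgery, with n = 6 for S1, 5 for S4, and 3 each for S10, S20 and S48. The PH groups were named X in the same way, with n = 6 for X1, 3 for X4, 6 each for X10, X20 and X36, 5 for X48, 3 each for X28, X44, X72 and X1W (1 week), and 2 for X4W (4 weeks). A sham group and the PH group of the same hour shared both the interval since surgery and the time of day, whereas comparisons with C0 up to 44 h also crossed the time of day and those at 48 and 72 h did not. The time of day at 1 and 4 weeks is not given in the sources used here. The livers were collected in 3 periods, with 3 C0 livers in each. S48, X28, X44, X48, X72 and X1W came from the first, S10, S20, C4W and X4W from the second and C4 from the third, while S1, S4, X1, X4, X10, X20 and X36 came from both the first and the second (the period of the 3 X4 livers analysed here is not given). The labels do not tie replicate numbers to periods, so livers with the same numbers may come from different periods. Of the PH-sham comparisons, that at 48 h lay within 1 period, and the comparisons with C4 crossed periods. Mice were operated on and killed in sets of 3, so PH-sham comparisons also crossed such sets.

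Estimated depth was 12.2 to 48.9 M (mega) reads per library, with a median of 26.2 M. Hepatocyte markers summed to at least 25390 RPKM in every library, so each sample was liver. C0 replicate 8 stood apart, with a summed neutrophil marker level (5 genes) of 49.1 RPKM and a summed macrophage marker level (6 genes) of 142.8 RPKM, where the median C0 libraries had 1.08 and 23.6 RPKM. The summed level of the dividing-cell markers (6 genes) was 0.39 to 3.69 RPKM in C0 and 0.82 to 2.07 RPKM in S48. After PH it was 34.9 to 82.3 RPKM in the X36 livers, and it peaked in X44 with 96.1 to 160.6 RPKM before 75.1 to 142.3 RPKM in X48. The X72 livers had 45.0 to 67.7 RPKM. In a whole liver, fewer cells of a type and less RNA per cell cannot be told apart. The median gene was 0.27 higher on the log2 scale in X48 than in S48, so differences at 48 h are also given after scaling the libraries. X48 was the higher group for 90.1% of its calls against S48 as deposited, 58.0% after scaling each library by its median ratio to the mean library, and 38.8% after giving all libraries the same median.

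Promoter sequences from RefSeq (assembly GRCm38.p6) were matched to 8 of the 10 genes. They are shown for the 4 genes whose window from 250 bases before to 50 after the transcription start held a match to the p53 half-site consensus on either strand, and for Phlda3, which had the largest of the 10 differences between PH and sham at 48 h. The 250 bases before the start are printed 5′ to 3′ on the strand of the gene, with the half-site match in capitals.
Trp53, chr11:69580109-69580358 (+ strand): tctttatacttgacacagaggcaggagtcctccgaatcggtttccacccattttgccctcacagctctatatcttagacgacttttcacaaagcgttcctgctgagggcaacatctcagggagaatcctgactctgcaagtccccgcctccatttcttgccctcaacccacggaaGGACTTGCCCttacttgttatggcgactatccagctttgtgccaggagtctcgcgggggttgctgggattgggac
Mdm2, chr10:117710759-117711008 (- strand): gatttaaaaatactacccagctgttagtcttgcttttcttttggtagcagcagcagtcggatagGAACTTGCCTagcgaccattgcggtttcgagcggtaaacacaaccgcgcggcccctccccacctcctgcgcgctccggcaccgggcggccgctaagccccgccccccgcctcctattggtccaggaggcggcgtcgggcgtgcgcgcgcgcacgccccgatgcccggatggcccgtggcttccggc
Ccng1, chr11:40755287-40755536 (- strand): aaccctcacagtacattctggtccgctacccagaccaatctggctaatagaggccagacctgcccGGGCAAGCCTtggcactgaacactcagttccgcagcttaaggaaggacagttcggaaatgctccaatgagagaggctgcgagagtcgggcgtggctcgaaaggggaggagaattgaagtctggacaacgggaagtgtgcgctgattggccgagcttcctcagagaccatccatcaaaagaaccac
Gadd45a, chr6:67037408-67037657 (- strand): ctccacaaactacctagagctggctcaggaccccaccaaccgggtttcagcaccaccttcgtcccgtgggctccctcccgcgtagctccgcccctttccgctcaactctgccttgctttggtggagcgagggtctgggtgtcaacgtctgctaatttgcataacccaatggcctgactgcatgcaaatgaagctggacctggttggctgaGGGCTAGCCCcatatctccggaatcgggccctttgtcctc
Phlda3, chr1:135765835-135766084 (+ strand): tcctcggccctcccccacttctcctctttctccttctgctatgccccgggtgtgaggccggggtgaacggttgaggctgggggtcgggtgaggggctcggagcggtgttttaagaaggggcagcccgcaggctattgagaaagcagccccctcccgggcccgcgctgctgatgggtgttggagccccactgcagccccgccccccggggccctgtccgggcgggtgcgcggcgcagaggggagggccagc

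The matches were GGACTTGCCC in Trp53 (75 to 66 bases before the start), GAACTTGCCT in Mdm2 (186 to 177 bases), GGGCAAGCCT in Ccng1 (185 to 176 bases) and GGGCTAGCCC in Gadd45a (40 to 31 bases). Over all 32851 promoters of this table, 8.36% of the windows held such a match. The windows of Gadd45b, Gadd45g, Phlda3 and Bbc3 held none. Only single half-sites were searched and only within these windows, so sites elsewhere in a gene were not seen. Binding of p53 was not tested. Neither the AP-1 site TGANTCA (7.81% of all windows) nor the cAMP response element TGACGTCA (1.79%), both searched on both strands, occurred in a member's window.

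PH was first compared with sham surgery at the same hour, which asks what resection adds to the operation. Mdm2, Ccng1 and Phlda3 were higher after PH at 48 h, Gadd45b was higher at 4 h and Gadd45g at 20 h, and Bbc3 was lower after PH at 20 and 48 h. Trp53 itself was higher at 48 h at the edge of the threshold. Called here means an adjusted p below 0.05 (limma, Benjamini-Hochberg over all 15396 detected genes) with a log2 difference beyond 0.5. Of the 10 genes, 0 were called at 1 h, where 0.650% of all detected genes were, 1 at 4 h (8.64% of all genes), 0 at 10 h (7.02%), 2 at 20 h (7.11%) and 5 at 48 h (27.2%). At an unadjusted p below 0.05, limma placed 2 of the 10 at 1 h and 2 at 4 h. It placed 3 at 10 h, 4 at 20 h and 5 at 48 h. The share of all genes at this looser cut is not given here, so these counts have no background. At 48 h, 4 of the 5 were higher after PH, as 24.5% of all genes were, and 1 was lower, as 2.69% of all genes were. The median log2 difference over the 10 genes at 48 h was -0.10, beside 0.27 over all genes. The plot of PH minus sham differences shows each gene at each hour.

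**Figure D1:**
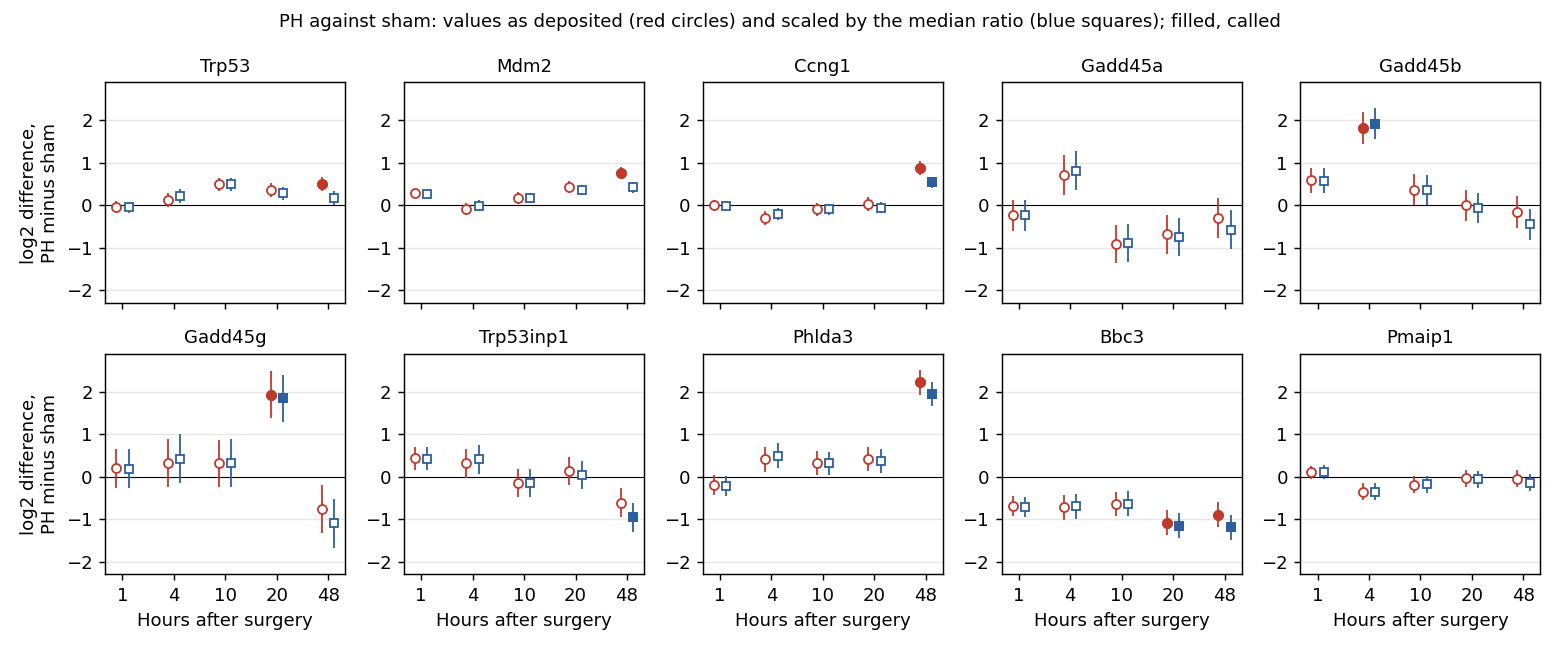
Difference between PH and sham on the log2(RPKM + 0.25) scale (y axis) by hour after surgery (x axis, 5 times from 1 to 48 h) for each of the 10 genes, with bars of 1 standard error. Red circles are values as deposited, blue squares are values after scaling by the median ratio, and filled symbols are called. Phlda3 at 48 h stands at 2.23 and 1.96, Bbc3 lies below 0 at all 5 hours, and Trp53 and Mdm2 at 48 h are called as deposited and not after scaling.

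Trp53 (chr11:69393861-69405375 in mm9, + strand) encodes p53 itself. Its level was 2.14 to 6.58 RPKM over the 80 libraries. In C0 it ranged from 2.78 to 6.13 RPKM with a median of 3.45, the highest being replicate 8. The level was higher in all C0 livers numbered 7 to 9 (4.43, 6.13 and 4.22 RPKM) than in those numbered 1 to 6. At 1 h it was 2.14 to 3.26 RPKM in S1 (median 2.75) and 2.21 to 3.25 in X1 (median 2.50), so these groups overlapped. At 4 h it was 6.39, 4.55, 4.60, 4.78 and 4.93 RPKM in the S4 livers and 6.58, 3.88 and 6.42 in the X4 livers. The unoperated C4 livers of the same hour had 5.04, 4.99 and 4.63 RPKM, and neither S4 nor X4 was called against C4. Against C0, Trp53 was called in X4 and X44, at the fold threshold with 0.51 each. The X4 call was kept under both scalings (0.68 and 0.69) and the X44 call under neither (0.01 and 0.19). Leaving out livers of any 1 of 4 numbers ended the X4 call and of any 1 of 5 the X44 call, with differences of 0.36 to 0.49. At 48 h the S48 livers had 3.18, 2.53 and 4.01 RPKM and the X48 livers 3.87, 4.57, 4.94, 4.46 and 5.43, with 1 X48 liver below the highest S48 liver. The difference was 0.50 ± 0.17 (SE) on the log2 scale with an adjusted p of 0.010, at the fold threshold. The 48 h call was lost without the livers numbered 2 in every group (0.36, adjusted p = 0.20) or 5 (0.45, adjusted p = 0.027). After scaling the difference was 0.18 by the median ratio (adjusted p = 0.46) and 0.04 by the same median (adjusted p = 0.89). At 10 h the X10 livers (3.64 to 5.65 RPKM) lay above all 3 S10 livers (2.99, 3.28 and 3.14), with a log2 difference of 0.49 and an adjusted p of 0.032 that fell short of the fold threshold. The pseudogene Trp53-ps was listed at 0 in all 80 libraries.

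Mdm2 (chr10:117125944-117147814, - strand), the ligase that restrains p53 and a p53 target, ranged from 2.58 to 4.38 RPKM in C0, with a median of 3.64. In S48 it was 3.52, 3.80 and 3.44 RPKM, and in X48 it was 5.80, 6.72, 5.39, 7.21 and 6.15. Every X48 liver was above every S48 liver, and the log2 difference was 0.76 ± 0.14 with an adjusted p of 1.4e-05. The difference was 0.42 after median-ratio scaling (adjusted p = 0.0066) and 0.29 with the same median (adjusted p = 0.057), both under the fold threshold. The highest levels were in X44, at 9.58, 9.97 and 6.08 RPKM, where the mean was 8.54 ± 2.14 (SD, n = 3), followed by X36 at 7.00 ± 0.33 (n = 6), X72 at 6.54 and X48 at 6.25 ± 0.72 (n = 5). These 4 groups overlapped in their libraries. Against C0 it rose in X10, X20, X36, X44, X48 and X72, by 0.62 to 1.25 on the log2 scale, and it also rose in S10, by 0.54, where no liver had been resected. Without the livers numbered 1, 2 or 7 the S10 difference was 0.48 to 0.49, under the fold threshold. The X20 and S10 calls were lost under both scalings, and the X10 and X48 calls under the same median. At 1 week it was 4.58, 4.04 and 5.08 RPKM and not called.

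Ccng1 (chr11:40562054-40568813, - strand) encodes cyclin G1, a p53 target that recruits a phosphatase to Mdm2. In C0 it was nearly constant, at 5.93 to 7.72 RPKM with a median of 7.04, and in S48 it was 6.89, 7.53 and 6.72 RPKM. The X48 livers had 10.4, 14.4, 14.9, 14.6 and 12.0 RPKM. All 5 were above all 3 sham livers, and the log2 difference was 0.88 ± 0.16 with an adjusted p of 7.6e-06. After median-ratio scaling the difference was 0.54 and still called (adjusted p = 0.0019), and with the same median it was 0.40 (adjusted p = 0.025), under the fold threshold. X44 was again the highest group, with 19.6, 18.5 and 11.6 RPKM. X36 spanned a range of 7.94 to 19.9 RPKM (median 10.2), with replicate 2 at the top. In X36, Ccng1 was higher in all livers numbered 1 to 3 (13.5, 19.9 and 10.5 RPKM) than in those numbered 4 to 6 (9.96, 7.94 and 9.68). Against C0 it was called in X36 (0.71), X44 (1.21), X48 (0.92) and X72 (0.85). The X36 call was lost under both scalings (0.34 with the same median and 0.47 by the median ratio), the X48 and X72 calls with the same median only (0.43 and 0.47), and the X44 call under neither. Ccng1 was also called, unlike the other 9 genes, against C0 at 1 week, where the livers had 10.2, 9.51 and 13.4 RPKM and the log2 difference was 0.65 with an adjusted p of 0.00040. At 1 week 16.9% of all genes were called. The 1-week call was lost with the same median, at 0.44. At 4 weeks both livers were at 8.32 and 8.47 RPKM, beside 7.53 and 7.84 in C4W.

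Phlda3 (chr1:137662696-137665713, + strand), a p53-induced inhibitor of Akt signalling, was the least abundant of the genes that were higher at 48 h. It was at 0.20 to 0.56 RPKM in C0, near the detection threshold, and passed that threshold in 43 of the 80 libraries. In S48 it was 0.205, 0.294 and 0.212 RPKM, and in X48 it was 0.949, 2.52, 2.42, 2.88 and 1.92. The groups did not overlap, and the log2 difference of 2.23 ± 0.29 had an adjusted p of 3.9e-09. It was called under both scalings. The 3 X28 livers were still at 0.499, 0.346 and 0.40 RPKM, and the X36 livers at 2.84, 4.43, 1.48, 0.768, 0.537 and 1.05. The X36 livers numbered 1 to 3 were thus above those numbered 4 to 6. X44 had 4.89, 3.78 and 2.81 RPKM, and the level then fell to 1.88, 1.15 and 1.58 in X72 and 1.04, 0.301 and 0.594 in X1W, which was not called against C0. The log2 changes of low genes are damped by the added 0.25 RPKM.

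**Figure D2:**
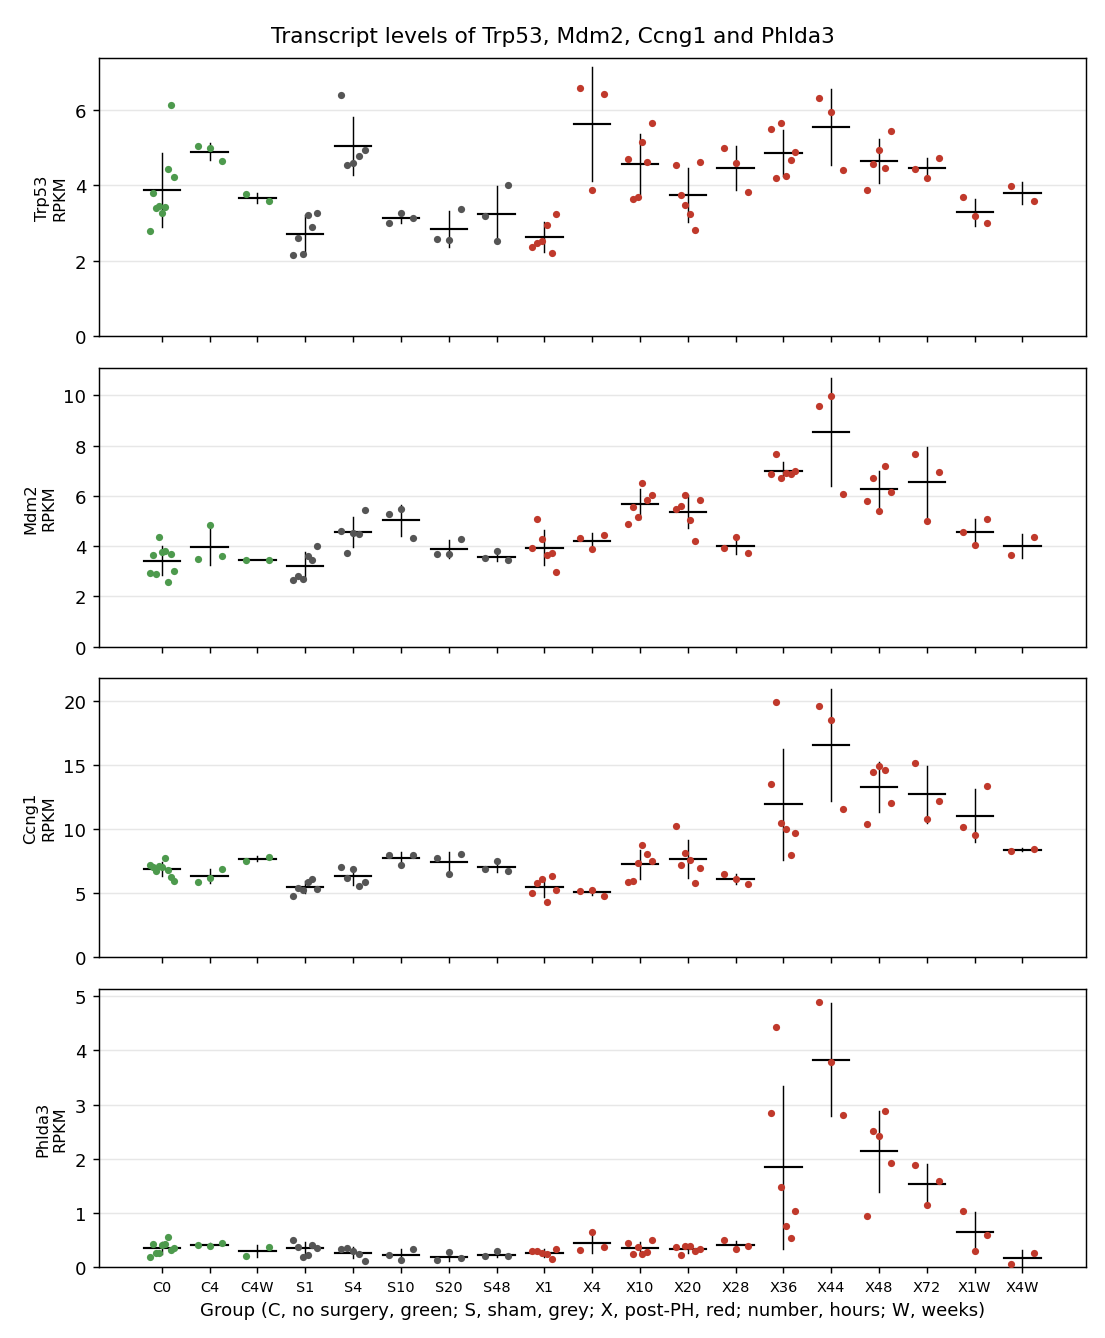
Levels of Trp53, Mdm2, Ccng1 and Phlda3 in RPKM (y axes, from 0) in the 19 groups (x axis). Points are libraries, thick lines group means and thin lines 1 SD, with unoperated livers in green, sham in grey and PH in red. Mdm2, Ccng1 and Phlda3 have their highest group mean in X44 (8.54, 16.6 and 3.83 RPKM), while Trp53 stays between 2.14 and 6.58 RPKM.

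With the time of day held at ZT22, X44 was compared with X20. Of the 10 genes, 4 were called, all higher at 44 h, where 16.1% of all genes were called and 12.9% were called higher. They were Phlda3 (2.77 on the log2 scale), Ccng1 (1.08), Mdm2 (0.62) and Trp53 (0.55). The Mdm2 difference was 0.47 and the Trp53 difference 0.40 after median-ratio scaling, and both then missed the call. The Trp53 call was also lost without the livers numbered 1, 2 or 5 (0.47 to 0.50). The dividing-cell markers moved with these genes, since all 6 were called higher in X44 than in X20 and in X48 than in S48, with median log2 differences of 5.47 in each. Their part in the result was not tested. Between X48 and X72, both at ZT2, 0 of the 10 genes were called (5.96% of all genes), and limma gave 0 of them an unadjusted p below 0.05.

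The rise of the PH-sham difference from 4 to 48 h was itself called for Ccng1 (1.18 ± 0.23, adjusted p = 2.4e-05), Phlda3 (1.81 ± 0.41, adjusted p = 0.00032) and Mdm2 (0.85 ± 0.20, adjusted p = 0.00046). From 10 to 48 h it was called for the same 3 genes, at 0.98, 1.90 and 0.59. For Gadd45b the difference fell by 1.97 between 4 and 48 h (adjusted p = 0.0021). The background was 33.6% of all genes for the change from 4 h and 23.1% for that from 10 h. The Mdm2 changes were not called under either scaling, nor was that of Ccng1 from 10 h with the same median (0.49), and the Mdm2 change from 10 h was also lost without the livers numbered 1 (0.53) or 2 (0.54).

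The Gadd45 genes encode small stress sensors that bind the kinase MAP3K4, PCNA and cyclin-dependent kinase complexes. Gadd45b (chr10:80392836-80394949, + strand), known in liver for its early response to resection and cytokines, had C0 levels of 0.31 to 1.51 RPKM with a median of 0.79. At 1 h it was 2.58 to 10.8 RPKM in S1 (median 7.01) and 8.22 to 11.7 in X1 (median 9.64). Both groups were above every C0 liver, and they overlapped with each other. At 4 h the S4 livers were back to 3.85, 1.43, 1.43, 1.47 and 2.92 RPKM, while the X4 livers had 6.75, 6.88 and 10.3. The X4 livers were all above the S4 livers, and the log2 difference was 1.82 ± 0.38 with an adjusted p of 0.00032. The unoperated C4 livers had 1.65, 4.08 and 1.14 RPKM, also below X4, and the X4-C4 difference was 1.84 (adjusted p = 0.00015). The PH-sham difference was smaller at 20 h than at 4 h by 1.81 (adjusted p = 0.014, with 11.0% of all genes called), a change that was lost without the livers numbered 2 (-1.57), 3 (-1.48) or 6. Neutrophil markers summed to 4.45 to 9.47 RPKM in X4 and 6.96 to 42.4 in S4, and 1 of the 5 was called lower in X4. At 1 h they summed to 8.40 to 19.5 RPKM in X1 and 2.28 to 11.3 in S1, with 1 called higher in X1. Their part in the Gadd45b levels was not tested. From 28 to 72 h Gadd45b was called higher than C0 in each PH group, by 0.87 to 1.65, with the X44 and X48 calls lost under both scalings. At 4 weeks it was 0.202 and 0.218 RPKM, lower than every C0 liver (-1.21, adjusted p = 0.041). That call was lost when livers of any 1 of 7 numbers were left out, with an adjusted p of 0.26 without those numbered 2. Without numbers 1 or 2 X4W held 1 liver, which was assumed to vary like the livers of the other groups.

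Gadd45g (chr13:51942047-51943837, + strand) was the most abundant of the 10 genes, with a median of 21.7 RPKM over all libraries. The C0 livers alone spanned 1.90 to 39.3 RPKM (median 13.1). At 1 h it was 40.6 to 92.0 RPKM in S1 (median 60.8) and 57.5 to 99.3 in X1 (median 65.9), both above every C0 liver. At 4 h it reached 101, 94.7, 54.6, 109 and 105 RPKM in S4 and 106, 108 and 126 in X4. These were not separate from each other, but both lay far above the C4 livers of the same hour, which had 5.55, 5.58 and 5.79 RPKM. The log2 differences from C4 were 3.94 for S4 and 4.27 for X4, with adjusted p values of 3.3e-08 and 6.9e-08. At 20 h the S20 livers had 2.62, 4.65 and 12.6 RPKM and the X20 livers 10.9, 9.50, 47.3, 18.2, 36.0 and 28.6. The groups overlapped, with the highest S20 liver above 2 of the X20 livers, and the log2 difference of 1.93 ± 0.56 had an adjusted p of 0.014. Without the livers numbered 1 it was 1.63 (adjusted p = 0.17). At 48 h the means were 29.5 RPKM in S48 and 17.5 in X48, and the difference was not called.

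Gadd45a (chr6:66985090-66987451, - strand), the member of the family best known as a p53 target, was never called between PH and sham. C0 fell into levels that went with the replicate numbers, at 1.36 to 2.07 RPKM for 1 to 3, 0.40 to 0.58 for 4 to 6 and 1.96 to 2.88 for 7 to 9. At 1 h the S1 livers numbered 1 to 3 had 0.627, 0.864 and 0.787 RPKM and those numbered 4 to 6 had 6.33, 4.51 and 1.44, while all X1 livers were at 1.14 to 1.74. The unoperated C4 livers had 3.72, 4.27 and 1.85 RPKM, and the X4 livers 4.10, 2.54 and 6.61. X4 was called against C0 (1.51, adjusted p = 0.0022) and not against C4, and without the livers numbered 6 the first difference was 1.03 (adjusted p = 0.090). The lowest levels were in X10, at 0.129 to 0.675 RPKM, all below the S10 livers at 0.918, 0.997 and 0.893, with a log2 difference of -0.91 ± 0.46 and an adjusted p of 0.20. Against C0, Gadd45a was called lower in X10 (-1.29), a call kept in all 26 alternative settings. This comparison crosses the time of day, and the X10 livers overlapped the C0 livers numbered 4 to 6. The noncoding gene E230016M11Rik overlaps Gadd45a on the other strand, and reads were counted by strand.

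Trp53inp1 (chr4:11083578-11101526, + strand) encodes a nuclear and autophagy protein that promotes p53 activity. It rose sharply 1 h after either operation. Its C0 levels were 5.34 to 8.39 RPKM in replicates 1 to 3 and 7 to 9, and 23.9, 19.8 and 18.1 in replicates 4 to 6. At 1 h the S1 livers numbered 1 to 3 had 44.1, 44.2 and 40.1 RPKM and those numbered 4 to 6 had 108, 90.1 and 91.9. The X1 livers numbered 1 to 3 had 99.0, 107 and 106 RPKM and those numbered 4 to 6 had 66.2, 92.2 and 61.9. All 12 livers were above every C0 liver, with log2 differences of 2.67 for S1 and 3.11 for X1. Over all 6 livers a group the PH-sham difference was 0.43 with an adjusted p of 0.68. Within the livers numbered 1 to 3 it was 1.28 (adjusted p = 0.026), within those numbered 4 to 6 it was -0.41 (adjusted p = 0.69), and the difference of these 2 values was 1.69 ± 0.50 (adjusted p = 0.035). The same held for Mdm2 at 1 h, with 0.65 (adjusted p = 0.0053) in numbers 1 to 3, -0.10 (adjusted p = 0.88) in numbers 4 to 6 and a difference of 0.75 (adjusted p = 0.024). For 4.83% of all genes the PH-sham difference at 1 h was called as differing between the numbers.

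By 4 h Trp53inp1 was back at 7.93, 4.30, 6.93, 3.58 and 4.05 RPKM in S4 and 7.25, 6.82 and 5.32 in X4, beside 6.15, 7.68 and 5.10 in C4. It was called lower than C0 in S4, X10, X28 and X36, by 0.83 to 1.28 on the log2 scale. With C0 replicates 7 to 9 alone as the resting livers, none of these 4 was called, a setting that also leaves fewer C0 livers. Among the C0 livers, Trp53inp1 was highest in replicates 4 to 6 (23.9, 19.8 and 18.1 RPKM). At 48 h it was 17.9, 17.6 and 11.1 RPKM in S48 and 7.73, 7.56, 11.8, 10.1 and 13.1 in X48. The log2 difference of -0.62 was not called (adjusted p = 0.14), but it was -0.96 after median-ratio scaling (adjusted p = 0.028) and -1.10 with the same median (adjusted p = 0.0085). After scaling, its PH-sham difference was also called as lower at 48 h than at 4 h, by -1.37 and -1.46.

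**Figure D3:**
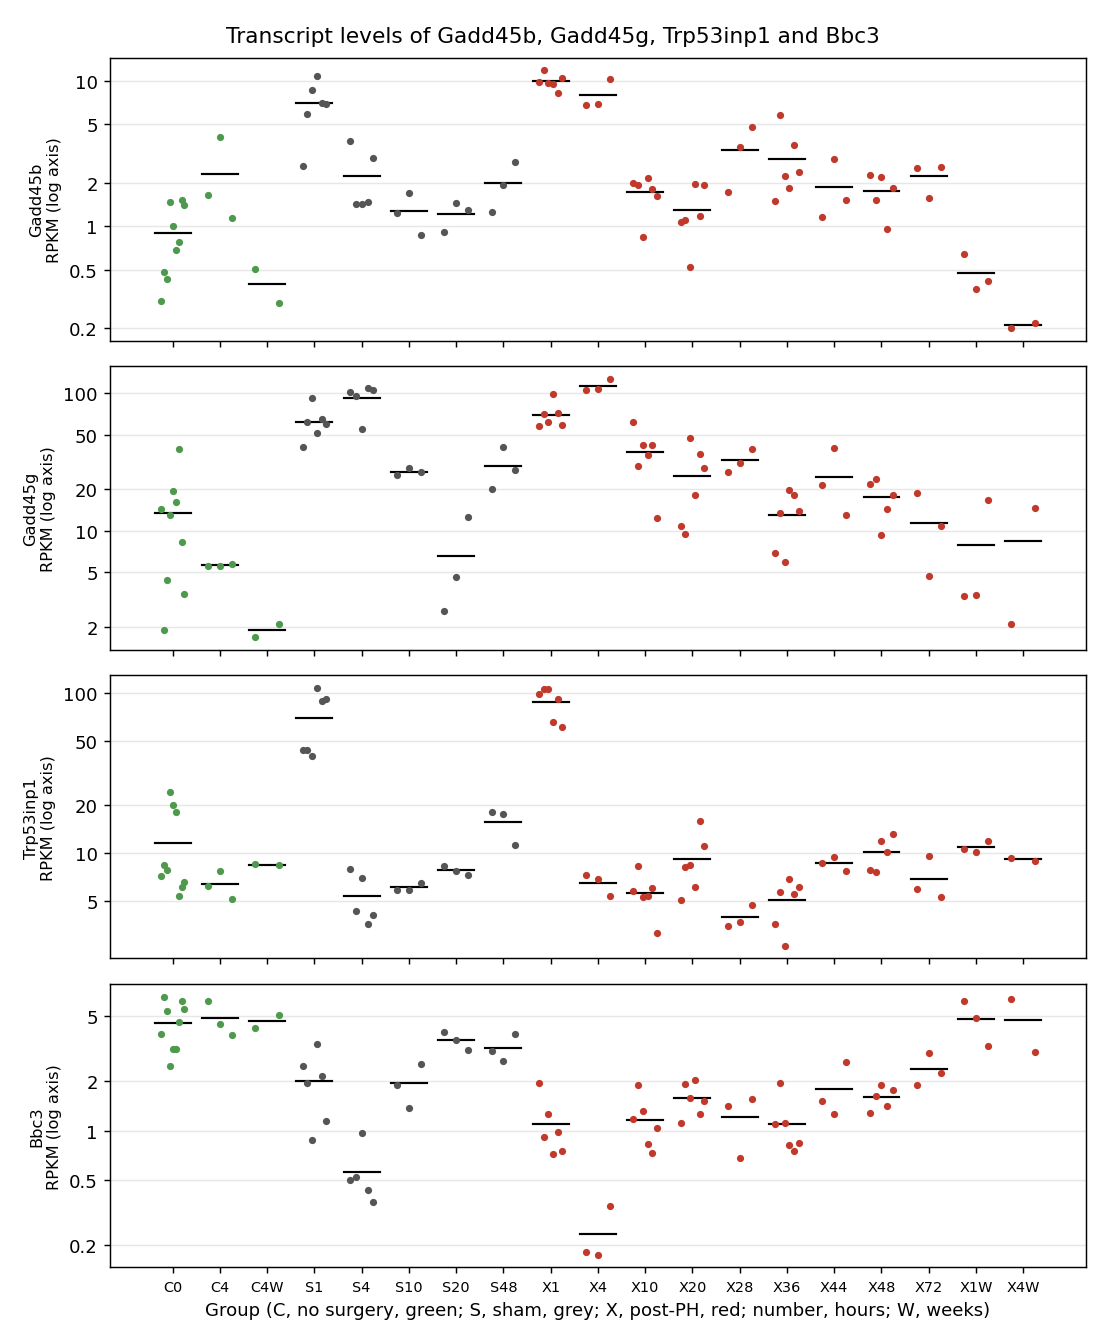
Levels of Gadd45b, Gadd45g, Trp53inp1 and Bbc3 in RPKM (log axes) in the 19 groups (x axis). Points are libraries and lines are group means, with unoperated livers in green, sham in grey and PH in red. The X4 livers for Gadd45b lie at 6.75 to 10.3 RPKM, above all S4 livers, and the S4 and X4 livers for Bbc3 all lie below 1 RPKM.

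Bbc3 (chr7:16894965-16903554, + strand) encodes PUMA, a pro-apoptotic BH3-only protein and p53 target. It fell after both operations, and in the PH groups it stayed below C0 until 72 h. Its C0 levels were 2.50 to 6.54 RPKM (median 4.62), and the C4 livers had 6.21, 4.51 and 3.85. At 4 h it was 0.498, 0.525, 0.973, 0.438 and 0.365 RPKM in S4 and 0.181, 0.175 and 0.346 in X4. Against C4 the log2 differences were -2.67 for S4 (adjusted p = 1.7e-11) and -3.39 for X4 (adjusted p = 2.4e-13). All X4 livers were below all S4 livers, with a log2 difference of -0.72 and an adjusted p of 0.096.

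At 20 h the S20 livers had regained 4.01, 3.58 and 3.12 RPKM of Bbc3, within the C0 range, while the X20 livers had 1.12, 1.93, 1.59, 2.04, 1.27 and 1.51. The groups did not overlap, and the log2 difference was -1.08 ± 0.29 with an adjusted p of 0.0074. At 48 h the S48 livers had 3.06, 2.65 and 3.89 RPKM and the X48 livers 1.28, 1.62, 1.90, 1.43 and 1.78. Again no livers overlapped, and the log2 difference was -0.89 ± 0.30 with an adjusted p of 0.011. The 48 h call was kept under both scalings, at -1.20 and -1.32. When the livers with 1 replicate number were left out of all groups, it was lost without replicate 1 (-0.85, adjusted p = 0.069) or 3 (-0.81, adjusted p = 0.056), and the 20 h call was lost without replicate 1 (-0.92, adjusted p = 0.15). Bbc3 was called lower than C0 in all 9 PH groups from X1 to X72 and in S1, S4 and S10, and without the livers numbered 1 the X72 difference was -0.72 with an adjusted p of 0.078. At 1 week it was 6.18, 4.90 and 3.27 RPKM and at 4 weeks 6.41 and 3.04, back in the C0 range. With the time of day held at ZT6, X28 was compared with X4, and 3 of the 10 genes were called, beside 28.3% of all genes. Bbc3 was 1.56 higher at 28 h, while Gadd45b (-1.28) and Gadd45g (-1.81) were lower, and each of the latter 2 calls was lost without some livers (Gadd45b without those numbered 1 or 6, Gadd45g without those numbered 1, 4, 5 or 6). With the same median 5 were called, Gadd45a (-1.41) and Trp53 (-0.52) being added, and by the median ratio 6, with Trp53inp1 (-0.93) as well. The share of all genes called under these scalings is not given here.

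Pmaip1 (chr18:66618258-66625204, + strand) encodes NOXA, another BH3-only protein. It was near 0 throughout, with a median of 0.089 RPKM, and passed the detection threshold in 1 of the 80 libraries. That library was C0 replicate 8, at 0.423 RPKM, which also had the highest neutrophil and macrophage markers in C0. No comparison called it. The 5 PH-sham differences were -0.35 to 0.10 on the log2(RPKM + 0.25) scale, and their 95% intervals lay within -0.75 and 0.42. The added 0.25 RPKM damps any fall from levels this low. The part of the other cells in that library's value was not tested.

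**Figure D4:**
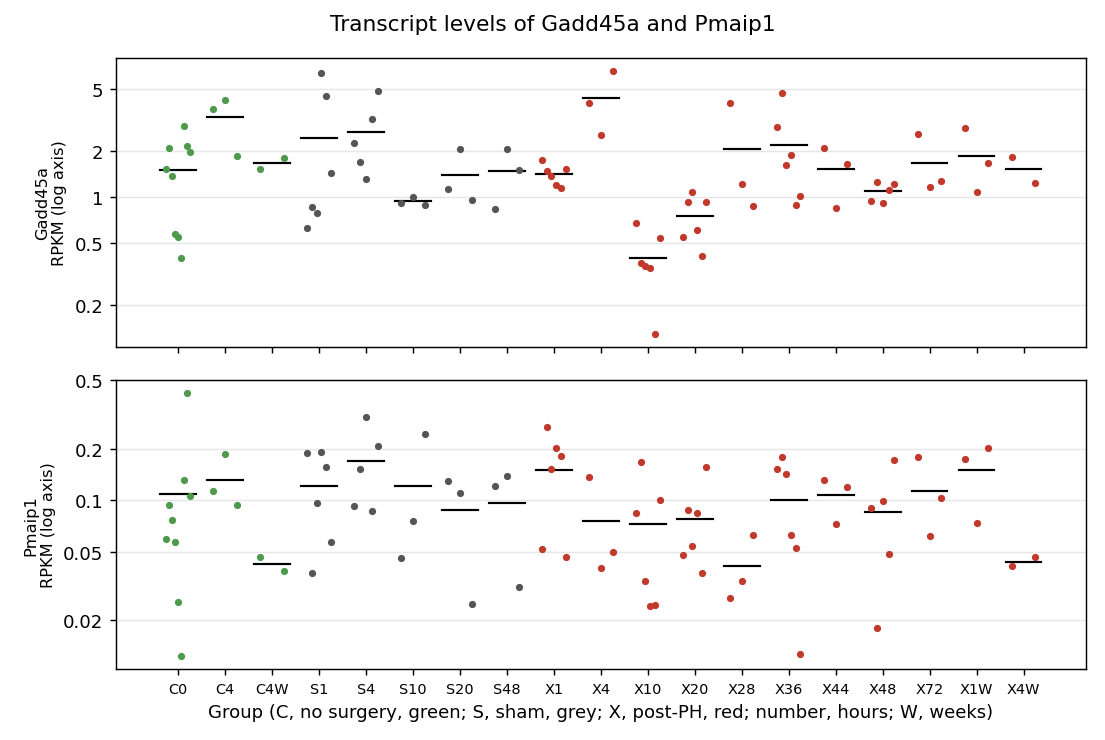
Levels of Gadd45a and Pmaip1 in RPKM (log axes) in the 19 groups (x axis). Points are libraries and lines group means, coloured green for unoperated, grey for sham and red for PH. Gadd45a in C0 splits into livers below 0.6 RPKM and livers above 1.3, and Pmaip1 reaches 0.423 RPKM in 1 C0 liver.

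Against the resting livers, the same genes were called at 1 h after both operations. Of the 10 genes, 4 were called in S1 (7.77% of all genes) and 4 in X1 (13.5%), and both lists hold Gadd45b, Gadd45g, Trp53inp1 and Bbc3. In S4 4 were called (34.4% of all genes), in S10 3 (29.1%), in S20 0 (12.1%) and in S48 2 (8.88%), the last being Gadd45b and Gadd45g. Without the livers numbered 2 or 3 the S48 difference of Gadd45b was 0.94 (adjusted p = 0.13) or 0.69 (adjusted p = 0.27), and without those numbered 1, 2, 3 or 9 that of Gadd45g was 1.02 to 1.87 with adjusted p values of 0.055 to 0.28. For S20, limma gave 1 of the 10 an unadjusted p below 0.05. In the PH groups 5 were called in X4 (38.2%), 6 in X10 (36.4%), 3 in X20 (24.1%), 4 in X28 (24.9%), 6 in X36 (35.0%), 7 in X44 (39.2%), 5 in X48 (38.1%) and 5 in X72 (33.2%). The Gadd45g calls in S10, X20, X28 and X44 and the Gadd45b calls in X44 and X48 were each lost without the livers of at least 1 number. At 1 week 1 gene was called, Ccng1, and at 4 weeks 1, Gadd45b (5.62% of all genes). X4W and C4W differed in 0 of the 10 genes, where 0.0650% of all genes were called, and limma gave 0 of the 10 an unadjusted p below 0.05. These comparisons share the C0 livers and most cross the time of day. Between the unoperated C4 and C0 livers alone, Gadd45b was 1.08 higher at ZT6 (adjusted p = 0.024), 1 of 10 genes beside 7.89% of all genes, and without the livers numbered 1 or 2 the adjusted p was 0.060 (1.09) or 0.55 (0.54). Against C4, 2 genes were called in S4 (43.3% of all genes) and 3 in X4 (45.6%).

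The other genes of the pathway were taken from lists of known p53 targets (31 detected genes), p53 regulators (17) and other genes of the BCL-2 family (14). A further list held stress kinases around Gadd45, together with the gene Gadd45gip1 (12 genes). At 48 h, 15 of the 31 other targets were higher in PH than in sham livers and 0 were lower, beside 24.5% and 2.69% of all genes. Their median log2 difference was 0.51, against 0.27 over all genes. After median-ratio scaling 8 were higher and 2 lower, and with the same median 5 were higher and 4 lower. The largest as deposited were Psrc1, a spindle protein, which rose from 0.028 to 1.12 RPKM (2.24), Tnfrsf10b, a death receptor (1.52), and Eda2r (1.34), all 3 called under both scalings. Of the regulators, 5 of 17 were higher and 0 lower, beside 24.5% and 2.69% of all genes. The largest were the checkpoint kinases Chek2 (2.47) and Chek1 (2.18) and the Mdm2 partner Mdm4 (1.22). Under each scaling 4 of the 17 were higher and 0 lower. Their median log2 difference was then -0.019 by the median ratio and -0.13 with the same median. In the BCL-2 family 2 of 14 were higher, beside 24.5% of all genes, and 1 was lower, beside 2.69%. The higher genes were the effectors Bak1 (1.00) and Bax (0.79), the latter counted among the targets too and not called under either scaling. The lower was the BH3-only gene Bmf (-0.84). Under each scaling 1 of the 14 was higher and 2 were lower. Of the stress kinases Mapk13 was higher (1.02) and Mapk12 lower (-0.52). For the scaled counts of these lists, the share of all genes called is not given here, so they have no background. Of all genes called at 48 h, 58.0% were higher by the median ratio and 38.8% with the same median.

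At 4 h, 0 of the 31 other targets were higher after PH and 3 were lower, with 3.16% and 5.48% of all genes called in these directions. These were Sesn2, a stress-induced regulator of metabolism (-0.78), 9630033F20Rik, an older name of Tigar (-0.58), and the thiamine transporter Slc19a2 (-0.54), which was not called under either scaling. After median-ratio scaling 6 of the 31 were higher and 2 lower, and with the same median 5 and 2, so no direction of the list held at 4 h. The share of all genes called under these scalings is not given here. The p53 inhibitor Ppp1r13l (-0.88) and the BH3-only gene Bad (-0.81) were also lower, and 0 of the 12 genes on the stress-kinase list were called. Cdkn1a, the best known p53 target of cell-cycle arrest, is named after its values were seen. It was higher after PH than after sham at 10 h (8.36 and 0.71 RPKM, a log2 difference of 2.97 with an adjusted p of 0.0012) and at 20 h (25.4 and 3.76 RPKM, 2.56 with an adjusted p of 0.0056), when Mdm2, Ccng1 and Phlda3 were not called. At 48 h, when those 3 were called, its difference was 0.48 (adjusted p = 0.61). Of the 31 other targets, Cdkn1a among them, 2 were called higher and 1 lower at 10 h, beside 7.02% of all genes called. At 20 h 1 of the 31 was called higher and 1 lower, beside 7.11% of all genes called.

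The gene whose course was most like that of each member was found by the Pearson correlation of group means on the log2(RPKM + 0.25) scale over the 19 groups, among 11561 genes. These are descriptions over 19 points that share surgery and time of day. They were Srsf1 for Trp53 (0.89), Eif4enif1 for Mdm2 (0.95), Cenpj for Ccng1 (0.96), Neil3 for Phlda3 (0.98), Rab20 for Gadd45a (0.79), Maff for Gadd45b (0.90), Plk3 for Gadd45g (0.91), Dusp1 for Trp53inp1 (0.89) and Grb7 for Bbc3 (0.95). For Pmaip1 the closest was Lyve1, an endothelial marker, at 0.68. Plk3 is itself on the list of other p53 targets, as is Polk, the third gene for Ccng1 (0.95).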

How the data were processed

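Poly(A) RNA of individual livers was sequenced strand-specifically with single-end reads of 100 nucleotides. The authors trimmed the reads with Cutadapt and prinseq-lite, mapped them with TopHat2 2.0.13 and Bowtie2 to mm9 (with SAMtools 0.1.19), counted them per Ensembl gene on the transcribed strand with featureCounts, giving each position of a multi-mapped read an equal share, and deposited log2 RPKM. Of 84 value columns, 80 carried the name of 1 labelled sample, and the other 4 were not used. The X60 livers, 3 X4 livers and 1 X4W liver were not analysed here. Because RPKM divides by the library total, a shift in abundant transcripts moves all others, which is why 2 other scalings were tried.

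Here limma 3.58.1 (R 4.3.3) was applied to log2(RPKM + 0.25), in 1 model with a coefficient per group and a mean-variance trend, over the 15396 genes above -1.5 log2 RPKM in at least 1 library. P values, adjusted by Benjamini-Hochberg within each comparison, measure the spread between these livers, each taken as independent. They do not cover the spread between the sets of 3 mice that were operated on and killed together. A difference between groups cannot be told apart from a difference between such sets. The members, gene lists and tests were chosen with earlier results of these data known. From the lists, the up to 3 called genes with the largest change at 48 and at 4 h were named. The test was checked on simulated data with independent livers. These held neither the levels by replicate number nor the shift of whole libraries seen here, so the check does not cover them. Gene positions are those of GENCODE for mm9, and promoter sequences, on GRCm38.p6, were not converted between builds. Depth was estimated from the size of 1 read among low values. Alternatives were other pseudocounts, filters, variance priors, scalings, blocks, control livers and left-out livers. Same-numbered PH and sham livers deviated together with correlations of -0.19 to 0.27, so the numbers were not taken as pairs. Figures were drawn with matplotlib 3.10.9.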

Additional observations from a re-analysis of the deposited data

Results flagged for a closer look

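In groups of 4 to 10 livers, 80 tests of the most distant liver were made (Dixon's test at the 95% level), of which 5 stood out. Chance flags about 1 in 20 groups. Trp53 was 6.39 RPKM in S4 replicate 1, where the next liver had 4.93. Mdm2 was 7.65 RPKM in X36 replicate 2, the next being 7.00. Gadd45b was 0.849 RPKM in X10 replicate 3, with the next at 1.63. Gadd45g was 54.6 RPKM in S4 replicate 3, with the next at 94.7. Pmaip1 was 0.423 RPKM in C0 replicate 8, with the next at 0.131.

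The PH-sham difference itself differed between hours for 4 genes by limma's test of the difference. Between 48 and 4 h it was larger at 48 h for Mdm2 by 0.85 on the log2 scale (adjusted p = 0.00046), for Ccng1 by 1.18 (adjusted p = 2.4e-05) and for Phlda3 by 1.81 (adjusted p = 0.00032), and for Gadd45b the change was -1.97 (adjusted p = 0.0021). Between 48 and 10 h it was larger at 48 h for Mdm2 by 0.59 (adjusted p = 0.020), for Ccng1 by 0.98 (adjusted p = 0.00057) and for Phlda3 by 1.90 (adjusted p = 0.00025). Between 20 and 4 h the change for Gadd45b was -1.81 (adjusted p = 0.014).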

How the results depend on the processing

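Over 26 alternative settings, no call changed direction. Of the 50 member comparisons of PH with sham 8 were called, and 13 were when the larger groups were limited to the livers numbered 1 to 3, which may come from different periods (the cause was not tested). Leaving out each replicate number in turn gave 5 to 8 calls for PH against sham, 10 to 15 (13 with all livers) for sham against C0, 42 to 48 (47) for PH against C0, 5 to 7 (6) for the same-hour controls, 5 to 7 (7) for PH hours at the same time of day and 6 to 8 (8) for changes with time. The same-median scaling lost 21 of the 89 calls and gained 12, the median-ratio scaling (chosen after seeing the data) lost 13 and gained 9, the fit of the compared groups alone lost 16, and C0 replicates 7 to 9 as the only resting livers 18. Without C0 replicate 8, 2 calls were lost. With the replicate block, 85 calls were kept and 4 were lost, and PH against sham again gave 8 calls, although Trp53 at 48 h (0.49) missed the fold threshold. At the median depth, 1 RPKM stood for 40.9 reads of Phlda3 and 69.4 of Pmaip1, so levels near 0.1 RPKM rest on few reads.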
